A study of Homo sapiens with 6 samples.

Results

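The genes described here are the protein-coding genes of chromosome 19 whose symbol is ZNF followed by a digit. This rule uses no expression values, but it was chosen with earlier results of these data known. By symbol and chromosome in GENCODE release 29, there were 249 such genes among 19948 protein-coding genes with at least 1 transcript in the tables. They were compared between control and siDDX5 cultures of Rh30, an established alveolar rhabdomyosarcoma line that is positive for the PAX3-FOXO1 fusion. Both groups are this line and carry that fusion, and the siDDX5 cultures differ by a knockdown of DDX5, an RNA helicase of the DEAD-box family. Each group held 3 libraries of polyadenylated RNA. The control agent and the time of knockdown are not given in the sources used here, and results from 1 line describe that line only.

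ZNF genes encode proteins with arrays of C2H2 zinc fingers, in which neighbouring fingers read neighbouring bases of DNA. Many also carry a KRAB box, which binds TRIM28. TRIM28 in turn brings the histone methyltransferase SETDB1 to the bound site and silences it, and retrotransposons are well-known targets. The genes arose by repeated tandem duplication, so they lie in clusters on chromosome 19 and neighbours have similar sequences.

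Of the 249 genes, 133 lay on the plus strand and 116 on the minus strand. Their predicted proteins held a median of 12 and at most 39 finger patterns, and a KRAB box pattern was found in 213. A gap of over 500 kb between neighbours was taken as the border of a cluster, and 10 clusters held 5 or more of the genes. The 5 largest were ZNF264 to ZNF446 near the end of the long arm (43 genes, positions 57191500 to 58481230 of GRCh38), ZNF175 to ZNF331 (40 genes, 51571298 to 53580269), ZNF101 to ZNF254 at the inner end of the short arm (37 genes, 19668796 to 24129961) and, with 26 genes each, ZNF653 to ZNF791 (11483427 to 12640098) and ZNF565 to ZNF573 (36182060 to 37817300).

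The promoters of 5 genes are shown first, because a word that 4 of them hold was found in every matched promoter of the ZNF101 to ZNF254 cluster. ZNF844, ZNF93, ZNF682 and ZNF264 are the 4 genes called once replicate number entered the test as a block. ZNF90, picked after its values were seen, follows ZNF93 and ZNF682 along the chromosome, and its groups overlapped. Each sequence is the 250 bases before a RefSeq start site in GRCh38.p14, written 5′ to 3′ on the strand of the gene. Capitals mark the word CCAATCA, which holds the CCAAT core that the factor NF-Y is known to bind. The windows are chr19:12064481-12064730 (plus strand) for ZNF844, chr19:19900696-19900945 (plus) for ZNF93, chr19:20039506-20039755 (minus) for ZNF682, chr19:20077750-20077999 (plus) for ZNF90 and chr19:57191250-57191499 (plus) for ZNF264.
ZNF844: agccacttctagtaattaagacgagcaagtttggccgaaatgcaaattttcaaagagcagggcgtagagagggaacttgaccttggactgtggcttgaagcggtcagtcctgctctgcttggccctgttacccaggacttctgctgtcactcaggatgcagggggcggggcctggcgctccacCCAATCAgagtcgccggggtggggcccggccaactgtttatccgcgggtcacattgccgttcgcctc
ZNF93: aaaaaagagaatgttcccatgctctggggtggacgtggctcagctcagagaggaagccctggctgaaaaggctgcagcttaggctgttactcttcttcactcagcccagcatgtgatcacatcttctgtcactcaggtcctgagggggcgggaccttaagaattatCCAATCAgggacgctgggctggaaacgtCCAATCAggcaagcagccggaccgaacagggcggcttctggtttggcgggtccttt
ZNF682: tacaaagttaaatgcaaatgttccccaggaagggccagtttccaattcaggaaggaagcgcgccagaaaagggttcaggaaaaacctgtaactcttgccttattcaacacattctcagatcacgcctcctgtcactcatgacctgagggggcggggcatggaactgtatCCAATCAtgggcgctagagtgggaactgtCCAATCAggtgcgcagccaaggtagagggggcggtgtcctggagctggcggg
ZNF90: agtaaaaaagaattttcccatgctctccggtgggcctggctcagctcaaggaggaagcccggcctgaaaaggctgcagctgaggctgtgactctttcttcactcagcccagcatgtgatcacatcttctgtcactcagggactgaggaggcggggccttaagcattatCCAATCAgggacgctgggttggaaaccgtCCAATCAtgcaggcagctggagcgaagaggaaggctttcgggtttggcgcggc
ZNF264: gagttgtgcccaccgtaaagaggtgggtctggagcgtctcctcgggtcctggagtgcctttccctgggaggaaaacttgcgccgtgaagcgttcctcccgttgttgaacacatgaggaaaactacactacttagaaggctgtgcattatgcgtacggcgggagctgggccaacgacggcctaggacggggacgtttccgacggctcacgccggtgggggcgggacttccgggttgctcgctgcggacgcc

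ZNF93, ZNF682 and ZNF90 each have 2 copies of the word, beginning 84 and 56, 81 and 52, and 82 and 53 bases before the start. ZNF844 has 1 copy, 67 bases before the start, and the window of ZNF264 has none. CCAATCA was searched on both strands together with the longer word TCCAATCA, which contains it. The words were chosen after the sequences and the expression values had been seen. Promoters of 217 of the 249 genes were in the RefSeq table, and 62 of them (28.6%) held CCAATCA, against 7.98% of 27305 genes with a promoter. TCCAATCA was found in 54 (24.9%), against 1.79% of all genes. ZNF genes of other chromosomes lay between, with CCAATCA in 35 of 195 (17.9%).

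The word was unevenly spread along chromosome 19. All 29 matched genes of the ZNF101 to ZNF254 cluster held both CCAATCA and TCCAATCA, and 16 of them held 2 copies of CCAATCA in 1 window. The copy nearest to the start lay 23 to 84 bases before it, with a median of 54. In the ZNF653 to ZNF791 cluster 23 of 25 genes held CCAATCA. It was in 2 of 33 genes of the ZNF175 to ZNF331 cluster and 2 of 40 of the ZNF264 to ZNF446 cluster. None of the matched genes of the ZNF414 to ZNF846, ZNF565 to ZNF573, ZNF575 to ZNF180 and ZNF628 to ZNF835 clusters held it (12, 24, 19 and 14 genes). Genes of a cluster share descent, so these matches are not independent of each other. Other words were searched in the same way. GGGCGG, a GC box, was in 68.7% of the ZNF promoters against 46.2% of all, CCGGAAG, an ETS-type word, in 33.6% against 10.2%, and CAGCTG, an E-box of the kind muscle regulatory factors bind, in 17.1% against 16.7%. In ZNF genes of other chromosomes these shares were alike, at 61.5%, 32.3% and 15.9%. In the ZNF101 to ZNF254 cluster GGGCGG was in 22, CCGGAAG in 20 and CAGCTG in 18 of 29.

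The libraries held 18202402 to 26156858 estimated counts, the siDDX5 libraries being the shallower. Levels are given as TPM, which is scaled for transcript length and can be compared between genes, or as CPM, counts scaled to a common library total with TMM factors, which serves to compare 1 gene between libraries. DDX5 was at 1356, 1438 and 1141 CPM in control replicates 1 to 3 and at 551, 506 and 397 CPM in siDDX5 replicates 1 to 3, so that its log2 fold change was -1.44 ± 0.15 (SE), at an adjusted p of 0.0115 in edgeR's quasi-likelihood test. All 8 rhabdomyosarcoma markers were detected, at 15.6 to 589 TPM. Among the markers of epithelial, immune, endothelial, fibroblast and neural cells, the highest value in a library was 16.7 TPM, for CD68, and KRT19 was listed at 0 in all 6. Of the immune markers, CD68 was at 14.9 to 16.7 TPM in control and 9.44 to 12.3 TPM in siDDX5 libraries, without overlap. PTPRC was at 2.33 to 3.43 and 0.714 to 2.77 TPM, and CD3E was under 1 TPM throughout. The 4 epithelial markers, also apart, summed to 0.737 to 1.15 TPM in control and 1.20 to 1.51 TPM in siDDX5 libraries, and CDH1 was at 1.62 ± 0.38 and 2.45 ± 0.25 CPM (SD, n = 3 each). None of those that passed the filter was called by edgeR, and CDH1 had an adjusted p of 0.423. The sums of the endothelial, fibroblast and neural markers overlapped between the groups. The part of other cells in the results was not tested.

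Most chromosome 19 ZNF genes were expressed at a low level. Their mean over the 6 libraries ran from 0 to 113 TPM with a median of 10.6 TPM, against 19.5 TPM for all protein-coding genes tested. At a mean of at least 1 TPM there were 229 genes, at least 10 TPM 130 and at least 40 TPM 9. The filter on low counts kept 231 of the 249. Among the 18 left out the highest mean was 1.96 TPM, and 7 of them lie in the ZNF101 to ZNF254 cluster.

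The gene with the highest level was ZNF146, whose protein consists of little more than fingers. It was at 108 ± 11.1 TPM in control and 118 ± 9.46 TPM in siDDX5 cells (SD, n = 3 each). ZNF83 followed with 94.2 ± 8.01 and 83.2 ± 16.3 TPM, ZNF528 with 51.0 ± 12.8 and 48.5 ± 12.3 TPM, ZNF121 with 44.8 ± 8.30 and 50.9 ± 9.03 TPM, and ZNF93 with 39.3 ± 5.50 and 51.7 ± 4.05 TPM (SD, n = 3 each). ZNF146 and ZNF83 are apart from the rest of this order, while ZNF528, ZNF121 and ZNF93 lie within their spreads of each other. ZNF146, ZNF83 and ZNF528 had log2 fold changes of 0.14, -0.09 and -0.02, with edgeR adjusted p values of 0.682, 0.829 and 0.976. ZNF121 was at 72.7, 98.0 and 76.4 CPM in control and 107, 104 and 102 CPM in siDDX5 replicates 1 to 3. The groups did not overlap, but the log2 fold change of 0.35 (SE 0.13) had an edgeR adjusted p of 0.348, and it was 0.18 on log2(TPM + 1).

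Summed over all 249 genes, the level was 3034, 3667 and 3654 TPM in the control libraries and 3690, 3137 and 3715 TPM in the siDDX5 libraries. The means were 3452 ± 361 and 3514 ± 327 TPM (SD, n = 3 each), and the groups overlapped. In bulk RNA, fewer cells with a transcript and less of it per cell cannot be told apart. Control replicate 1 and siDDX5 replicate 2 were the low libraries, with 0.306% and 0.316% of all TPM against 0.368% to 0.375% in the others. In CPM the sums were 4214, 5026 and 4944 in control and 5004, 4917 and 5324 in siDDX5 libraries, again with overlap. The log2 ratio of the group means was 0.10 in CPM and 0.03 in TPM.

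No chromosome 19 ZNF gene was called at an edgeR adjusted p under 0.05, where 26 of 15204 genes (0.171%) were. The lowest adjusted p among the 231 was 0.0801. An unadjusted p under 0.05 was reached by 18 of the genes above control and 3 below. Of all genes, 5.29% were higher and 5.99% lower at that p. The DESeq2 Wald test called 3 of the 190 to which it gave an adjusted p (ZNF844, ZNF93 and ZNF682), against 3.03% of all genes. With limma-trend on log2(TPM + 1) 0 of 229 were called, against 0.00673% of 14856 genes. In 27 genes the siDDX5 libraries were higher without overlap, and in 7 they were lower. Over all genes these shares were 8.85% and 9.20%.

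With the replicate block, 4 of the 231 were called higher and 0 lower, beside 1.08% and 1.40% of all genes. Over all 15204 genes same-numbered libraries deviated together, which is why this fit is given. In TPM summed over the ZNF genes, the low libraries were control replicate 1 and siDDX5 replicate 2, which differ in number. The 4 called are ZNF844, ZNF93, ZNF682 and ZNF264, all with a KRAB box pattern, as have 199 of the 231 genes tested. Their number rested on which libraries were included: the blocked fit without replicate pair 1 called 7 of 231, against 6.73% of all genes. It called 27 of 232 without pair 2, against 7.92%, and 1 of 232 without pair 3, against 1.41%.

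ZNF844 (ENSG00000223547.9, chromosome 19, 12064699 to 12081565, plus strand) had the highest fold change of the 231. It was at 19.8, 28.4 and 27.4 CPM in control replicates 1 to 3 and at 40.8, 47.6 and 41.8 CPM in siDDX5 replicates 1 to 3. The lowest siDDX5 library was above the highest control library by more than either group's SD. The mean level was 25.2 ± 4.71 CPM (SD, n = 3) without and 43.4 ± 3.70 CPM (SD, n = 3) with the knockdown. The log2 fold change was 0.79 ± 0.15 (SE), and its adjusted p by edgeR was 0.0801, or 0.0120 with replicates as blocks.

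ZNF93 (ENSG00000184635.15, 19900913 to 19963464, plus strand) encodes a protein known to bind and repress a group of primate LINE retrotransposons. Its levels were 29.2, 36.9 and 37.7 CPM in control and 47.3, 49.0 and 52.6 CPM in siDDX5 replicates 1 to 3. All siDDX5 libraries were above all control libraries, and control replicate 1 was the lowest. The mean level was 34.6 ± 4.71 CPM (SD, n = 3) without and 49.6 ± 2.69 CPM (SD, n = 3) with the knockdown. The log2 fold change was 0.52 ± 0.13 (SE), and its adjusted p by edgeR was 0.168, or 0.0281 with replicates as blocks.

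ZNF682 (ENSG00000197124.11, 19997058 to 20039506, minus strand) lies next to ZNF93 among the genes tested. It was at 15.2, 15.6 and 19.2 CPM in control and 23.5, 23.1 and 26.6 CPM in siDDX5 replicates 1 to 3, again without overlap. The mean level was 16.7 ± 2.18 CPM (SD, n = 3) without and 24.4 ± 1.89 CPM (SD, n = 3) with the knockdown. The log2 fold change was 0.55 ± 0.14 (SE), and its adjusted p by edgeR was 0.178, or 0.0281 with replicates as blocks.

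ZNF264 (ENSG00000083844.10, 57191500 to 57222846, plus strand) opens the cluster nearest to the end of the long arm. Its levels were 47.1, 54.0 and 65.6 CPM in control and 69.5, 72.6 and 84.2 CPM in siDDX5 replicates 1 to 3. In both groups replicate 3 was the highest, and siDDX5 replicate 1 was only slightly above control replicate 3. The mean level was 55.6 ± 9.34 CPM (SD, n = 3) without and 75.4 ± 7.74 CPM (SD, n = 3) with the knockdown. The log2 fold change was 0.44 ± 0.14 (SE), and its adjusted p by edgeR was 0.283, or 0.0315 with replicates as blocks. Per length the difference was smaller, 13.7 ± 1.90 against 15.7 ± 2.05 TPM (SD, n = 3 each), and the fold change was 0.18 on log2(TPM + 1).

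**Figure D1:**
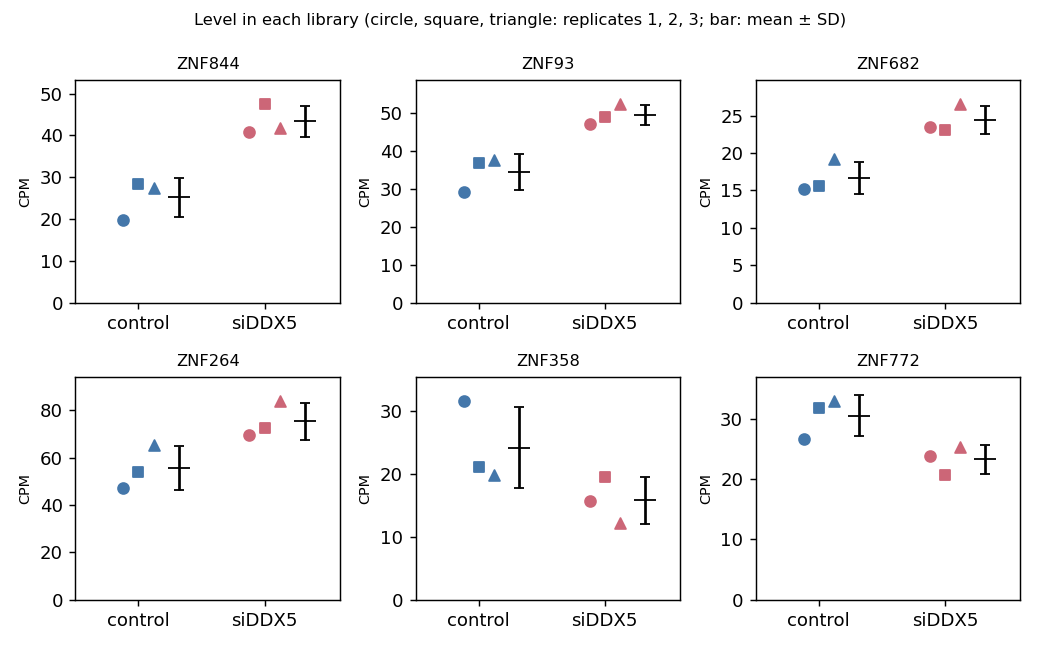
Level in CPM (y axis, from 0) of 6 ZNF genes in the control and siDDX5 libraries. Symbols are single libraries by replicate number, and bars give the mean ± SD of 3. In ZNF844, ZNF93, ZNF682 and ZNF264 each siDDX5 library lies above each control library, and in ZNF358 and ZNF772 all lie below.

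ZNF625-ZNF20 and ZNF781 complete the 4 highest fold changes among genes whose groups did not overlap. ZNF625-ZNF20, a readthrough of neighbouring genes, was at 3.86, 4.46 and 3.15 CPM in control and 5.05, 8.69 and 5.30 CPM in siDDX5 replicates 1 to 3 (log2 fold change 0.73, SE 0.26, edgeR adjusted p 0.324). Of the 31-base words of its leading transcript 98.9% also occur in another gene, so its share of the reads is uncertain, and the fold change was 0.44 without siDDX5 replicate 2. ZNF781 was at 4.25, 4.18 and 5.30 CPM in control and 6.49, 5.59 and 8.72 CPM in siDDX5 replicates 1 to 3 (0.60, SE 0.22, edgeR adjusted p 0.342), and its fold change was 0.14 on log2(TPM + 1).

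The 4 lowest fold changes without overlap were those of ZNF358, ZNF599, ZNF772 and ZNF836, and none was called in either fit. ZNF358 (ENSG00000198816.6, 7515292 to 7521026) was at 31.6, 21.0 and 19.9 CPM in control and 15.7, 19.5 and 12.1 CPM in siDDX5 replicates 1 to 3. Control replicate 1 stood above the others here, and without it the log2 fold change of -0.62 ± 0.22 (SE) was -0.37. By edgeR its adjusted p was 0.333, or 0.0857 when blocked. ZNF772 (ENSG00000197128.11, 57466663 to 57477570) was at 26.7, 31.9 and 33.1 CPM in control and 23.9, 20.7 and 25.4 CPM in siDDX5 replicates 1 to 3. Its log2 fold change was -0.39 ± 0.14 (SE), at an edgeR adjusted p of 0.326. ZNF599 had 4.53 ± 1.02 and 3.20 ± 0.15 CPM, and ZNF836 4.28 ± 0.23 and 3.35 ± 0.60 CPM (SD, n = 3 each). Their log2 fold changes were -0.50 and -0.36, the former -0.31 without control replicate 3.

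As a group, the chromosome 19 ZNF genes lay slightly above the rest. Of the 231 tested, 154 (66.7%) had a log2 fold change above 0, against 49.6% of all genes, and their median was 0.08 against -0.002. Their quartiles were -0.04 and 0.19. For 234 ZNF genes of other chromosomes 44.4% were above 0 with a median of -0.02, and for 822 other protein-coding genes of chromosome 19 43.7% were above 0 with a median of -0.04. These are descriptions, since genes are not replicates and many of these share sequence.

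**Figure D2:**
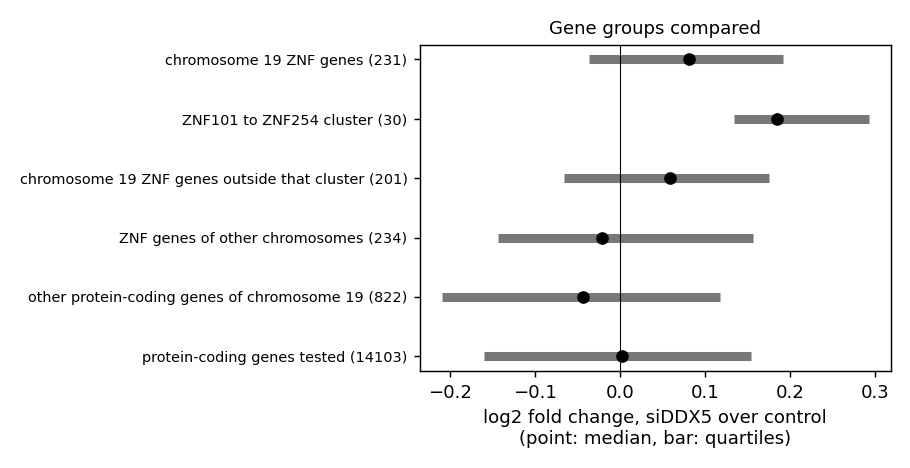
Log2 fold change of siDDX5 over control (x axis) for 6 groups of genes, with the number tested in brackets. The point is the median and the bar spans the quartiles. The ZNF101 to ZNF254 cluster has a median of 0.18, all chromosome 19 ZNF genes 0.08, and ZNF genes of other chromosomes -0.02.

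The size of this shift depended on control replicate 1. Each gene's deviation from its mean over the 6 libraries had a median over the 231 genes of -0.18, 0.04 and 0.03 in control replicates 1 to 3 and of 0.02, 0.00 and 0.10 in siDDX5 replicates 1 to 3, in log2 CPM. Control replicate 1 was the lowest library for 112 of the 231 genes (48.5%), against 17.9% of all genes. For 52 genes (22.5%) it was siDDX5 replicate 2, which held 22.8% of all genes' lowest values. Without control replicate 1 the median fold change was 0.02, and 126 of the 231 (54.5%) were above 0. In that fit all protein-coding genes had a median of 0.02 with 52.8% above 0. On log2(TPM + 1) the median of the ZNF genes was 0.03. Outside the ZNF101 to ZNF254 cluster, 125 of 201 genes were above 0 with a median of 0.06. Without control replicate 1 these were 99 of 201 and -0.001.

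The genes were next compared by position. In the ZNF101 to ZNF254 cluster 29 of 30 genes tested had a log2 fold change above 0, from 0.00 to 0.55 with a median of 0.18. Only ZNF738 was below 0, by less than 0.01. This cluster held 11 of the 27 genes whose siDDX5 libraries were all higher (ZNF682, ZNF714, ZNF93, ZNF253, ZNF708, ZNF101, ZNF43, ZNF724, ZNF730, ZNF100 and ZNF430, with log2 fold changes of 0.17 to 0.55) and 0 of the 7 that were lower. Over all genes, 8.85% were higher and 9.20% lower without overlap. Of 1948 protein-coding genes with a GC content under 40%, 319 were higher and 104 lower. The names in brackets were taken after the values were seen, and of the 11 only ZNF93 and ZNF682 were called with the block.

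Within that cluster ZNF253 is a tested neighbour of ZNF93. It was at 18.4, 21.6 and 24.1 CPM in control and 31.5, 28.3 and 29.2 CPM in siDDX5 replicates 1 to 3. ZNF708 was at 19.03, 23.995 and 20.03 CPM in control and 28.7, 28.1 and 27.8 CPM in siDDX5 replicates 1 to 3. In both genes the groups were apart, with log2 fold changes of 0.47 and 0.43 and edgeR adjusted p values of 0.235 and 0.254 (0.0736 and 0.0762 with the block). ZNF43 was at 45.3 ± 6.46 and 55.95 ± 0.58 CPM (SD, n = 3 each). By contrast ZNF90, with the same paired CCAATCA words as ZNF93 and ZNF682, was at 12.8, 16.8 and 14.8 CPM in control and 14.9, 15.04 and 14.3 CPM in siDDX5 replicates 1 to 3, a log2 fold change of 0.00 (SE 0.14) that was -0.18 on log2(TPM + 1). ZNF91, whose protein is known to repress SVA retrotransposons, was at 34.7, 40.2 and 48.9 CPM in control and 48.1, 38.1 and 54.5 CPM in siDDX5 replicates 1 to 3. Here too the groups overlapped (log2 fold change 0.18, SE 0.17, edgeR adjusted p 0.722).

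In 23 of the 30 genes of the cluster control replicate 1 was the lowest library. The median deviations were -0.27, -0.03 and 0.00 in control replicates 1 to 3 and 0.11, 0.05 and 0.16 in siDDX5 replicates 1 to 3. On this measure the groups did not overlap. In TPM summed over the cluster's 37 genes they did. Control replicates 1 to 3 were at 503, 594 and 630 TPM, and siDDX5 replicates 1 to 3 at 662, 567 and 676 TPM. Fewer genes were above 0 with length taken into account, 24 of 31 on log2(TPM + 1) and 25 of 30 with length-scaled TPM counts. Without control replicate 1 the cluster's median was 0.12. Over all settings it ran from 0.11 to 0.28 and stayed the only cluster of 5 or more genes that was above 0.1 in each.

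**Figure D3:**
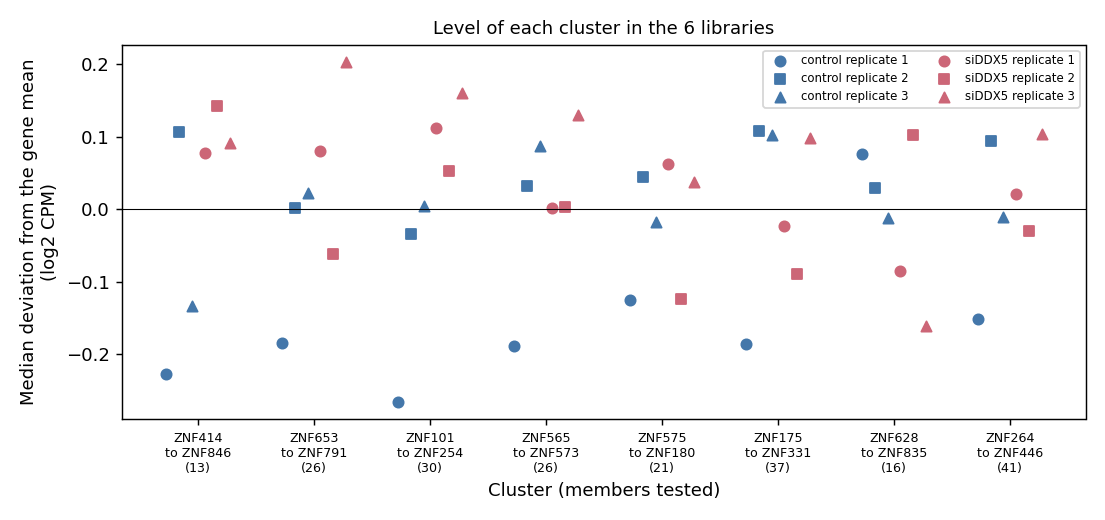
Median deviation from each gene's mean level (log2 CPM, y axis) in the 6 libraries for the 8 clusters with at least 10 genes tested, in order along chromosome 19. Control replicate 1 is the lowest library in all but the ZNF628 to ZNF835 cluster, and in the ZNF101 to ZNF254 cluster all siDDX5 libraries are above all control libraries.

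The other clusters had lower medians. ZNF414 to ZNF846 (11 of 13 above 0) and ZNF653 to ZNF791 (19 of 26) both had a median of 0.12, and ZNF565 to ZNF573 (22 of 26) had 0.10. The ZNF575 to ZNF180 cluster had 13 of 21 above 0 with a median of 0.06, ZNF628 to ZNF835 9 of 16 with 0.07, and ZNF264 to ZNF446 25 of 41 with 0.06. All of these were lower without control replicate 1. The medians of ZNF414 to ZNF846 and ZNF653 to ZNF791 were then 0.05 and 0.07, that of ZNF565 to ZNF573 was 0.03 (15 of 26 above 0), and those of ZNF575 to ZNF180, ZNF628 to ZNF835 and ZNF264 to ZNF446 were 0.0004, -0.04 and 0.006. In the ZNF175 to ZNF331 cluster, the only one of 5 or more genes with a median below 0, 15 of 37 were above 0 and the median was -0.03. The clusters ZNF554 to ZNF77 (3 of 5 above 0) and ZNF302 to ZNF792 (3 of 4) both had a median of 0.05. When single libraries were left out, the sign of the median changed in 1 or more fits for both of these clusters. It also changed for the ZNF175 to ZNF331 and ZNF628 to ZNF835 clusters. Over 213 pairs of neighbours within a cluster the Spearman correlation of their fold changes was 0.07, a description over genes measured in the same 6 libraries.

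**Figure D4:**
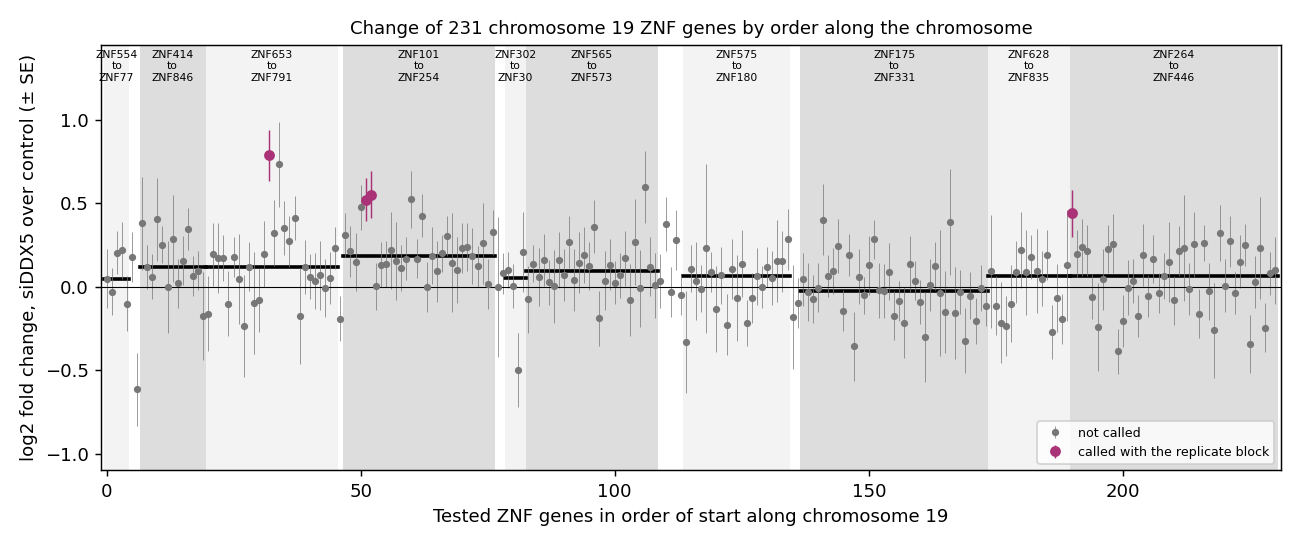
Log2 fold change of siDDX5 over control with its SE (y axis) for the 231 genes tested, in order of their start along chromosome 19 (x axis). Shaded bands are clusters of at least 5 genes, horizontal bars their medians, and the larger points the 4 genes called with the replicate block. Nearly all points of the ZNF101 to ZNF254 band lie above 0.

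**Figure D5:**
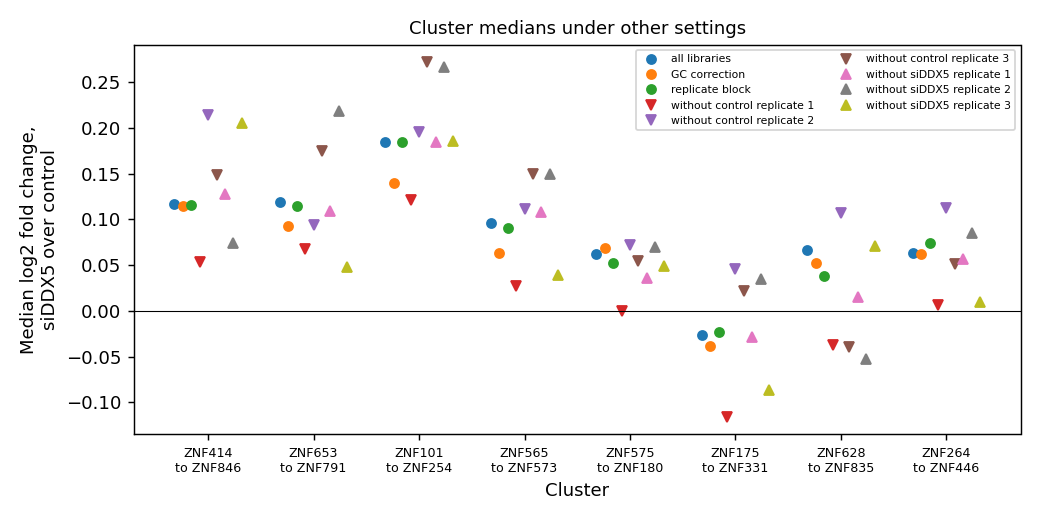
Median log2 fold change (y axis) of the 8 largest clusters with all libraries, with a GC correction, with the replicate block and without each library in turn. The ZNF101 to ZNF254 cluster stays above 0.1 in each, and the ZNF175 to ZNF331 and ZNF628 to ZNF835 clusters lie on both sides of 0.

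Base composition moved with the fold changes. The median GC content of the 249 genes was 43.1%, against 48.6% for all protein-coding genes tested, and that of the ZNF101 to ZNF254 cluster was 39.0%. Over all protein-coding genes the median log2 fold change was 0.06 at under 40% GC and -0.09 at over 60%. The ZNF genes had medians of 0.16 (43 genes), 0.09 (112), 0.04 (47), -0.002 (11) and 0.06 (18) from the lowest to the highest of 5 GC classes. Across the 231 genes, which share the same libraries, the Spearman correlation of fold change and GC was -0.25. Without control replicate 1 these differences were smaller: the medians of all protein-coding genes were 0.03 at under 40% and -0.02 at over 60%. Those of the ZNF genes were then 0.07, 0.02, -0.03, -0.04 and 0.08 in the same classes. With a GC correction and all libraries the median of the 231 was 0.07 and that of the ZNF101 to ZNF254 cluster 0.14. The part of GC content in these differences was not tested beyond this correction.

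Other properties of the genes were compared in the same way. The 199 genes tested that had a KRAB box pattern had a median of 0.07 with 134 above 0, and the 32 without had 0.09 with 20 above 0. Without control replicate 1 the former had 0.01 with 106 above 0, and the latter 0.09 with 20 above 0. Genes of 15 or more fingers had a median of 0.06 (77 genes), as had genes of under 10 fingers (61 genes), and the Spearman correlation with the number of fingers was 0.03. These medians were 0.01 and 0.005 without control replicate 1. Relatives also share sequence, and reads of shared sequence are divided by the quantifier. Over the 249 genes a median of 8.98% of the 31-base words of the leading transcript also occurred in another gene, with 16 genes at 50% or more. The 84 tested genes with under 5% had a median fold change of 0.05 with 53 above 0, and the 64 with at least 20% had 0.08 with 43 above 0. The medians were -0.004 with 40 above 0 and 0.02 with 35 above 0 without control replicate 1.

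Outside the ZNF101 to ZNF254 cluster, the 33 tested genes with CCAATCA in the promoter had a median of 0.12 with 23 above 0. The 144 without it had 0.06 with 92 above 0. These medians were 0.08 and -0.001 without control replicate 1. Of the 33, 23 lie in the ZNF653 to ZNF791 cluster, with 18 above 0 and a median of 0.17. In that cluster 2 genes lacked the word, with 1 above 0. Of the carriers elsewhere, 0 of 2 were above 0 in the ZNF175 to ZNF331 cluster and 2 of 2 in the ZNF264 to ZNF446 cluster. By TCCAATCA, the ZNF653 to ZNF791 cluster had 20 carriers (15 above 0, median 0.145) and 5 others (4 above 0, median 0.118). Outside the ZNF101 to ZNF254 cluster 17 of 25 genes with TCCAATCA and 98 of 152 without it were above 0. There the medians with and without GGGCGG were 0.06 and 0.06, CCGGAAG 0.08 and 0.06, and CAGCTG 0.05 and 0.06. CCAATCA was chosen after the values were seen, and ZNF844 is among the 33. The word and the position cannot be told apart.

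Of the partners of KRAB proteins, 21 corepressor genes were examined. None was called by edgeR without or with the block, by the DESeq2 Wald test or by limma-trend. In that order, these tests called only 0.171%, 2.48%, 3.03% and 0.00673% of all genes. The blocked fit called 2 of the 21 without replicate pair 1, 1 without pair 2 and 0 without pair 3. Of all genes these fits called 6.73%, 7.92% and 1.41%. In the edgeR test 1 of the 21 had an unadjusted p under 0.05 above control and 2 had one below, beside 5.29% and 5.99% of all genes. The siDDX5 libraries were higher without overlap in 4 of the 21 and lower in 4, beside 8.85% and 9.20% of all genes. Of the 21, 12 were above 0, and the log2 fold changes ran from -0.51 to 0.23 with a median of 0.05. TRIM28, the scaffold that KRAB boxes bind, was at 279 ± 28.4 and 288 ± 39.7 CPM, and SETDB1, the methyltransferase it recruits, at 47.7 ± 4.34 and 50.5 ± 4.18 CPM (SD, n = 3 each). Their log2 fold changes were 0.05 (SE 0.13, edgeR adjusted p 0.925) and 0.08 (SE 0.12, 0.836). ZNF274, the ZNF protein known to bring SETDB1 to the ZNF genes themselves, was at 20.1 ± 1.01 and 19.5 ± 1.88 CPM (SD, n = 3 each), at a log2 fold change of -0.04 ± 0.13 (SE) and an adjusted p of 0.939 by edgeR.

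Transcript usage, the share of a gene's counts on each of its transcripts, was tested in 194 of the genes. The Simes test of edgeR's diffSpliceDGE called 1, against 1.58% of 10688 genes, and with the replicate block 0, against 1.20%, with 2 at an unadjusted p under 0.05. The 1 gene was ZNF473, whose protein takes part in the processing of histone pre-mRNA. Its transcript ENST00000595661.5 was listed at 0 counts in all 3 control libraries and at 17.8, 56.0 and 18.7 counts in siDDX5 replicates 1 to 3. These are 2.57%, 8.22% and 3.30% of the gene's counts, with a Simes adjusted p of 0.0160 from edgeR that was 0.191 with the block. The total level of ZNF473 was 36.6 ± 6.55 and 34.2 ± 2.90 CPM (SD, n = 3 each). ZNF254, ZNF83 and ZNF776, next in order of the adjusted p, were at 0.539, 1.00 and 1.00 in the same edgeR test. The lowest and highest shares of ENST00000536937.5 of ZNF83 were 2.22% and 17.3% in the 3 control libraries, a wide spread within 1 group.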

How the data were processed

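Messenger RNA of 6 Rh30 libraries, 3 control and 3 siDDX5, was analysed, with groups and replicate numbers from the titles. Libraries were stranded and of the first-strand type, per the labels. Per the submitters' processing notes the tools were bcl2fastq 2.20, FastQC 0.11.8, cutadapt 1.11 and kallisto 0.46.0, and the build GRCh38. The deposited files give the authors' estimated counts and TPM values by transcript. The counts are not normalised, and the TPM values are scaled for effective length and to a common total, per the file headers. Neither the SD nor the SE holds the uncertainty of dividing reads among transcripts.

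Transcripts were joined to GENCODE release 29 genes by identifier (169797 of 188753) or, for copies outside the primary assembly, by symbol (15315), and 3641 were left out. This covered at least 99.26% of the counts of each library. Estimated counts were summed per gene, rounded, filtered with filterByExpr, scaled by TMM and tested with the quasi-likelihood test of edgeR 4.0.16 in R 4.3.3 over all 15204 genes, with Benjamini-Hochberg adjustment. A gene was called at an adjusted p under 0.05. A count of 3 was 0.117 to 0.166 CPM. The design text calls the replicates biological, but nothing names separate cultures, so p-values measure the spread between these libraries. Same-numbered libraries deviated together, with correlations of 0.21, 0.27 and 0.56 over 15204 genes for replicates 1, 2 and 3, so the replicate number was taken to pair them. The labels do not say what same-numbered libraries shared.

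KRAB and finger patterns were read from translated GENCODE coding sequences in place of RefSeq proteins, with a KRAB box pattern taken as at least 10 of 15 key positions. Promoters are from RefSeq (GRCh38.p14). Genes named by rule were those called in either fit, the 4 highest and 4 lowest fold changes without overlap at a mean of at least 1 TPM, the 5 highest mean TPM values and the 4 smallest p for transcript usage. ZNF90, ZNF91, ZNF253, ZNF708, ZNF43, ZNF274 and the other genes listed were named after their values were seen. The members and lists were chosen with earlier results of these data known.

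The alternatives were DESeq2 1.42.0 size factors and Wald test, no filter, a mean of at least 50 counts, length-scaled TPM counts, limma 3.58.1 trend on log2(TPM + 1) and log2(TPM + 0.1), the replicate block, a GC correction, both together, the primary assembly join, other cluster gaps and leaving out each library. The blocked fits without 1 replicate pair, and the genes with few shared words, were added after the data were seen. The statistical steps were tested on simulated data.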

Additional observations from a re-analysis of the deposited data

How the results depend on the processing

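None of the chromosome 19 ZNF genes was called in the fit reported first, and 3 were with DESeq2's Wald test (3.03% of all genes), 1 without a filter (0.524%), 4 with the replicate block (2.48%) and 4 with block and GC correction (3.20%). In the blocked fit 7, 27 and 1 were called without replicate pair 1, 2 and 3 (6.73%, 7.92% and 1.41% of all genes). Leaving out single libraries gave 0 each time, with 0 to 16 calls over all genes. Changed transcript usage, called for 1 gene (1.58% of all), was called for 4 without a filter (2.56%), 0 at a mean of at least 50 counts (0.552%), 0 with the replicate block (1.20%), and 0 to 3 when a library was left out (2.05% to 4.04%). The median log2 fold change of the genes ran from 0.02 to 0.14 over all alternatives. That of the ZNF302 to ZNF792 cluster was -0.031 on log2(TPM + 1) and -0.034 on log2(TPM + 0.1), and -0.0059 without siDDX5 replicate 2. The ZNF554 to ZNF77 cluster was at -0.0011 without control replicate 1 and -0.059 in the blocked fit without pair 1, where ZNF575 to ZNF180 was at -0.020. That of the ZNF628 to ZNF835 cluster was -0.038 and -0.058 on these scales and -0.019 and -0.081 in the blocked fit without pair 1 and 2, and ran from -0.052 to 0.11 without 1 library. The ZNF175 to ZNF331 cluster ran from -0.12 to 0.045 without 1 library and was at 0.094 in the blocked fit without pair 2.

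Among single genes, the sign of ZNF83 changed in the blocked fit without pair 2 (0.0080), and its values without 1 library ran from -0.15 to 0.017. For ZNF528 the sign changed in the blocked fit without pair 2 (0.14) or 3 (0.011), with -0.18 to 0.091 without 1 library. For ZNF473 it changed with length-scaled TPM counts (0.0045), with -0.24 to 0.011 without 1 library. ZNF90 was below 0 with a mean of at least 50 counts (-0.00057), length-scaled TPM counts (-0.15), both limma-trend settings (-0.18 and -0.20), the GC correction (-0.018), the block with it (-0.013) and the blocked fit without pair 1 (-0.099), with -0.089 to 0.11 without 1 library. ZNF274 ran from -0.11 to 0.034 without 1 library. TRIM28 was at -0.079 in the blocked fit without pair 2 and ran from -0.068 to 0.14 without 1 library. SETDB1 was at -0.0079 on log2(TPM + 1), -0.0080 on log2(TPM + 0.1) and -0.018 in the blocked fit without pair 3. The cause of these changes was not tested. As a general limit, separate from the genes just listed, low depth weighs most on genes of a few CPM.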
